A study of Mus musculus with 9 samples.

Results

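Liver RNA from mice given NFE2L2 T80K with CTNNB1 T41A, the group labelled MODEL2, was compared with liver RNA from the group labelled CTRL. The comparison used 6 of the 9 libraries of the series, 3 per group, chosen by their labels, and it was described across all 24419 gene symbols of the count table. All mice were male FVB mice on a normal diet, and each library was 1 mouse's liver. The MODEL2 animals, aged 19, 20 and 22 weeks, were given 20 µg of each of the pair of plasmids in 2 ml of saline by hydrodynamic tail vein injection, a rapid large-volume injection that carries DNA into hepatocytes, with Sleeping Beauty transposase to insert the cargo. CTRL mice were 13, 13 and 17 weeks old, and the labels do not say what they were given. MODEL1, 3 mice of 18 weeks given NFE2L2 G31A with the same CTNNB1 T41A, served only to show where MODEL2 differed from it. The design text describes a control given wild-type NFE2L2 with T41A that was examined 14 weeks after injection at 6 to 8 weeks of age, hence at no less than 20 weeks, older than each sequenced CTRL mouse. It reports tumours with both mutant pairs, but the labels do not say whether the sequenced tissue was tumour or surrounding liver. The shares of T80K, of T41A, of the injection and of tumour tissue in any difference between MODEL2 and CTRL cannot be told apart. No age occurred in both groups, so age and group cannot be fully told apart either.

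NFE2L2 encodes NRF2, a transcription factor that switches on genes for glutathione, detoxification, iron storage and NADPH supply. In resting cells the adaptor KEAP1 binds NRF2 and hands it to a CUL3 ubiquitin ligase for destruction, and T80K lies in a region through which KEAP1 holds it. CTNNB1 encodes beta-catenin, the effector of Wnt signalling; T41A removes a site whose phosphorylation marks it for destruction. In liver, Wnt signalling keeps the hepatocytes around the central vein in their pericentral state, with glutamine synthetase and drug-metabolising P450 enzymes, while hepatocytes near the portal tract carry out gluconeogenesis and urea synthesis.

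NRF2 binds antioxidant response elements, and windows that hold their core are printed here because NRF2 targets formed the largest group of list members that rose. RefSeq promoters (GRCm38.p6, 250 bases before to 50 after the start) were searched on both strands for TGACNNNGC, with no overlap with the other motif searched. Counted per gene, this core occurred in a promoter of 14.0% of 27025 genes, of 16.1% of the 1990 tested genes with a promoter, of 7 of the 16 tested NRF2 targets with a promoter and of 3 of the 8 of these that rose; counted per promoter, 12.4% of 32851 held it. The capitals mark the core or its reverse complement, each line runs 5′ to 3′ along the gene's strand, and a match is a description of letters, not of binding.

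Ugdh, chr5:65435951-65435989, minus strand: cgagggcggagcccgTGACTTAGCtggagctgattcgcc

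Ugdh, chr5:65435913-65435951, minus strand: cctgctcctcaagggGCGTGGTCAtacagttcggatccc

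Abcc4, chr14:118706221-118706259, minus strand: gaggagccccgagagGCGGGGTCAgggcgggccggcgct

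Txnrd1, chr10:82859099-82859137, plus strand: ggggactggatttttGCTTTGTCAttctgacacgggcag

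Abcc2, chr19:43782195-43782233, plus strand: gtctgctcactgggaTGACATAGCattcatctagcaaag

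Ugdh and Abcc4 passed the test below and Txnrd1 and Abcc2 did not, so the core's presence did not separate called from uncalled targets. The TCF/LEF motif ATCAAAG, recognised by beta-catenin's DNA-binding partners, occurred in a promoter of 4.29% of all genes, of 3.67% of tested genes and of 1 of the 10 tested Wnt feedback and pericentral genes with a promoter, the glutamate transporter Slc1a2.

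Library totals were low, 243876 to 297541 counts in CTRL and 241205 to 288547 in MODEL2, so that 3 counts, the most that a count of 0 allows, stood for 10.1 to 12.4 CPM (counts scaled to library size). This floor uses raw library totals, whereas the other CPM values use TMM-scaled library sizes. Of the symbols, 9512 held 0 counts in all 9 libraries, and 2639 passed the filter on low counts and were tested. Hepatocyte markers summed to 3169 to 3741 CPM in CTRL and 2048 to 2697 in MODEL2, with Ass1, an enzyme of the urea cycle, at 0 in both groups. Among markers of other cells, Kupffer cell genes summed to 41.4 to 90.4 CPM in CTRL and 42.9 to 64.4 in MODEL2, and 6 and 7 of their 14 genes were at 0. Endothelial genes summed to 452 to 574 and 286 to 559 CPM, stellate genes to 203 to 231 and 185 to 340, and cholangiocyte genes to 4.52 to 15.6 and 3.58 to 12.1, with Krt7, Krt19 and Epcam at 0. T and NK cell genes reached at most 11.7 CPM in CTRL and were all at 0 in MODEL2. Erythroid genes summed to 131 to 467 and 136 to 278 CPM, dendritic cell genes to 82.8 to 131 and 96.6 to 109, B and plasma cell genes to 46.9 to 56.4 and 16.1 to 53.0, exocrine pancreas genes to 64.0 to 99.5 and 34.1 to 125, and neutrophil genes to at most 3.76 in CTRL and 0 in MODEL2. Of 7 tested markers of cells other than hepatocytes, edgeR called 0, beside 13.3% of all tested genes. At an unadjusted p under 0.05 edgeR gave 0, beside 26.2%, and DESeq2 and limma-voom called 0. With only 7 genes, this does not show that the content of these cells was unchanged. Rn45s, the ribosomal RNA precursor, took 10.3%, 6.89% and 2.43% of the counts in CTRL replicates 1 to 3 and 4.11%, 2.73% and 2.20% in MODEL2. In bulk liver, fewer cells of a type and less RNA per cell cannot be told apart.

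Abundant liver messages were not where a liver library usually holds them. Albumin (Alb) had 783 counts over the 3 CTRL libraries, whereas Gm30505, a predicted transcript on the strand opposite the fetuin gene Ahsg, had 79891 and Ahsg itself 156. Of the 20 symbols with the most counts, 16 share exon sequence with a gene on the opposite strand, as do 1592 of the 2639 tested symbols (60.3%) and 206 of the 350 called ones (58.9%). Txnip had 621 counts in CTRL and Gm15441 opposite it 6301, and Nr1i3 had 40 and Tomm40l opposite it 8080. In these pairs most counts stood on the symbol opposite the liver gene. The sources used here do not state how the counting treated strand. A symbol's count, and a change in it, may therefore describe transcripts of the other strand, which was not tested. Reads of a gene and of its opposite-strand neighbour cannot be told apart. A low count of a symbol, with or without an annotated neighbour, need not mean a low level of its transcript. Each gene below is given with such an exon neighbour where the annotation (GENCODE M21, mm10) has one.

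Between MODEL2 and CTRL, 350 of 2639 genes differed (13.3%; edgeR's quasi-likelihood test, Benjamini-Hochberg adjusted p under 0.05). Of these 219 were higher in MODEL2 (8.30% of those tested) and 131 were lower (4.96%), with fitted changes of at least 2-fold for 167 and 111. At an unadjusted p under 0.05 there were 691 genes (26.2%), 383 higher (14.5%) and 308 lower (11.7%). The libraries of the groups did not overlap for 462 genes higher (17.5%) and 325 genes lower (12.3%) in MODEL2. They did not overlap for 328 of the 350 called genes, so separation adds little to a call. Of the 219 risen genes 12 had 0 counts in all CTRL libraries and a further 20 had 1 to 3 in all, while 1 of the 131 fallen genes, the olfactory receptor symbol Olfr541, came down to 3 or fewer counts in MODEL2. With library size in place of TMM scaling, 72.8% of the called genes were higher instead of 62.6%, and the median of all tested genes moved from 0.00 to 0.11 log2 units. Without CTRL replicate 1, which had the highest Rn45s share of the 6 libraries, 223 genes were called, and without the 3 libraries of the series in which Rn45s took over 8% of counts, 210; 16 of the 74 tested named genes lost their call in the latter setting: Ugdh, Fth1, Glul, Cyp1a2, Ahsg, Alb, Itih4, Cyp2b9, Cebpb, Per2, Aurka, Crip3, Tsr1, Rnf146, Tmem198b and Bcl6.

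**Figure D1:**
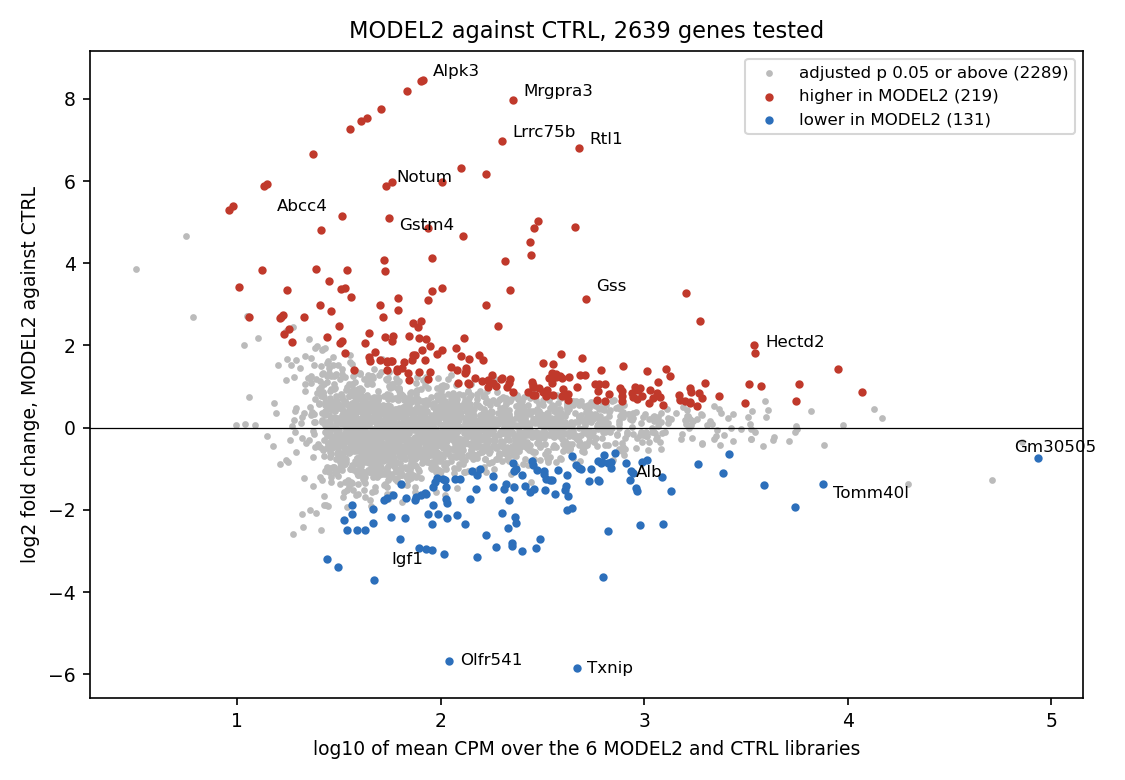
Log2 fold change of MODEL2 against CTRL (vertical axis) against the log10 of the mean CPM over the 6 libraries (horizontal axis) for the 2639 tested genes. Red points, 219 genes, were higher and blue points, 131 genes, lower at an adjusted p under 0.05; the largest rises sit at low CPM and Gm30505 is the called gene with the most counts.

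The NRF2 programme was the group with the most rises. Of 64 listed targets 22 could be tested, and 10 of these rose, 0 fell and 12 did not pass, beside 8.30% of all tested genes higher. edgeR also gave 0 targets lower at an unadjusted p under 0.05, as did DESeq2 and limma-voom at their adjusted thresholds. Across the 22 the median was 1.41 on the log2 scale, against 0.00 for all tested genes. Targets with few counts in CTRL could pass the filter only through the models, so this count describes the tested members and not all 64. Summed over the 64, targets held 786 to 945 CPM in CTRL, 2508 to 3046 in MODEL2 and 4435 to 6354 in MODEL1, with no overlap between groups.

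Both enzymes that were tested in glutathione synthesis rose. Gclc, the catalytic subunit of the first and limiting step (chromosome 9, 77754535 to 77794485), had 16, 14 and 28 counts in CTRL and 68, 61 and 66 in MODEL2. Each MODEL2 library lay above each CTRL library, a log2 fold change of 1.66 ± 0.31 (SE; edgeR adjusted p = 0.00063). Gss, glutathione synthetase, which performs the second step (chromosome 2, 155563181 to 155592810), had 33, 13 and 33 counts against 232, 267 and 231. The groups lay far apart, at 104 ± 39.2 and 926 ± 130 CPM (SD, n = 3), a rise of 3.13 ± 0.26 log2 units (edgeR adjusted p = 1.4e-08); exons of Acss2, Gssos1 and Gssos2 lie opposite. Srxn1, sulfiredoxin, which repairs over-oxidised peroxiredoxins, had 1, 0 and 0 counts against 10, 7 and 3, a ratio of 18.8 with an exact 95% counting interval of 3.0 to 778 (edgeR adjusted p = 0.0112; 0.0544 without MODEL2 replicate 1). Txnrd1, thioredoxin reductase, had 6, 2 and 2 counts against 15, 4 and 12 and did not pass (1.5 ± 0.65, edgeR adjusted p = 0.145). The cystine transporter Slc7a11 (1.24 ± 0.72), the peroxiredoxin Prdx6 (0.87 ± 0.57) and glutathione reductase Gsr (0.07 ± 0.90) did not pass either. Gclm, the modifier subunit of Gclc's enzyme, was too low to test, with 4 counts in CTRL and 17 in MODEL2, a ratio of 3.99 (1.30 to 16.3; opposite exon of Gm17494).

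Glutathione transferases of the mu class rose, and those of the other classes did not pass. Gstm1 had 4, 11 and 28 counts in CTRL and 100, 97 and 58 in MODEL2 (2.47 ± 0.42, edgeR adjusted p = 0.00026), with CTRL replicate 3, the oldest control, closest to the MODEL2 range. Gstm3 had 3, 2 and 0 counts against 22, 9 and 10 (2.85 ± 0.70, edgeR adjusted p = 0.00757), a call that limma-voom did not make (adjusted p = 0.0715). Gstm4 had 0, 0 and 2 against 28, 37 and 20, a ratio of 39.9 (10.7 to 335; edgeR adjusted p = 9.0e-06). Groups did not overlap for any of these 3, which are near-identical neighbours on chromosome 3 that can share reads. The alpha-class Gsta3 (0.89 ± 0.64), the theta-class Gstt2 (-0.65 ± 0.54) and the microsomal Mgst1 (-0.88 ± 0.68) did not pass. Among untested members, Gsta4 had a count ratio of 4.46 (1.48 to 18.0) and Gstm2 of 7.5 (1.76 to 67.3), whereas the pi-class Gstp1 had 5, 4 and 7 counts against 6, 0 and 0, a ratio of 0.352 (0.113 to 0.946).

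Export and conjugation genes showed the same pattern in part. Abcc4, a membrane pump for conjugates and nucleotides (chromosome 14, 118482692 to 118706219), had 0, 0 and 1 counts in CTRL and 15, 11 and 25 in MODEL2, a ratio of 47.8 (8.21 to 1926; edgeR adjusted p = 0.0001). Ugdh, which makes UDP-glucuronic acid for glucuronidation, had 0, 2 and 0 against 8, 12 and 5, a ratio of 11.7 (2.92 to 102; edgeR adjusted p = 0.0179). Its call ended without CTRL replicate 1 (adjusted p = 0.0847), CTRL replicate 3 (0.0715) or MODEL2 replicate 2 (0.0876). Abcc4 and Ugdh both had 2 or fewer counts in all of CTRL. The canalicular pump Abcc2 had 12, 7 and 9 counts against 8, 8 and 12 (-0.08 ± 0.52, adjusted p = 0.939), and epoxide hydrolase Ephx1 had 3, 4 and 4 against 12, 10 and 8 without passing (1.32 ± 0.60, edgeR adjusted p = 0.168). The basolateral pump Abcc3 was lower by count, with 19 and 6 counts, a ratio of 0.296 (0.0968 to 0.771). Nqo1, a classic NRF2 target that reduces quinones, had 4 counts in 1 MODEL2 library and 0 in the other 5. Cbr1, a carbonyl reductase, had 0 against 10 counts, 3.13-fold higher against a floor of 3 counts over the group.

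Iron genes divided. Slc40a1, ferroportin, the cell's iron exporter (chromosome 1, 45908068 to 45926523), had 3, 6 and 4 counts in CTRL and 30, 45 and 46 in MODEL2 (3.09 ± 0.41, edgeR adjusted p = 1.2e-05). Fth1, the ferritin heavy chain, had 4, 7 and 4 against 22, 16 and 16 (1.72 ± 0.51, edgeR adjusted p = 0.0272), a call that ended without CTRL replicate 1 or 3 or MODEL2 replicate 1 or 2 (adjusted p 0.0587 to 0.108) and that limma-voom did not make (0.160). Both were separated between groups, while the ferritin light chain Ftl1, at 19, 24 and 18 against 27, 27 and 26 counts, missed the threshold (0.29 ± 0.34, adjusted p = 0.652; Gm10252 has an exon opposite). The haem transporter Slc48a1, opposite Hdac7, stood at -0.75 ± 0.54 log2 units (adjusted p = 0.409). Hmox1, haem oxygenase, and Blvra held 0 counts in all 6 libraries, and biliverdin reductase B, Blvrb, had 3 against 21 counts, a ratio of 6.57 (1.96 to 34.4).

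**Figure D2:**
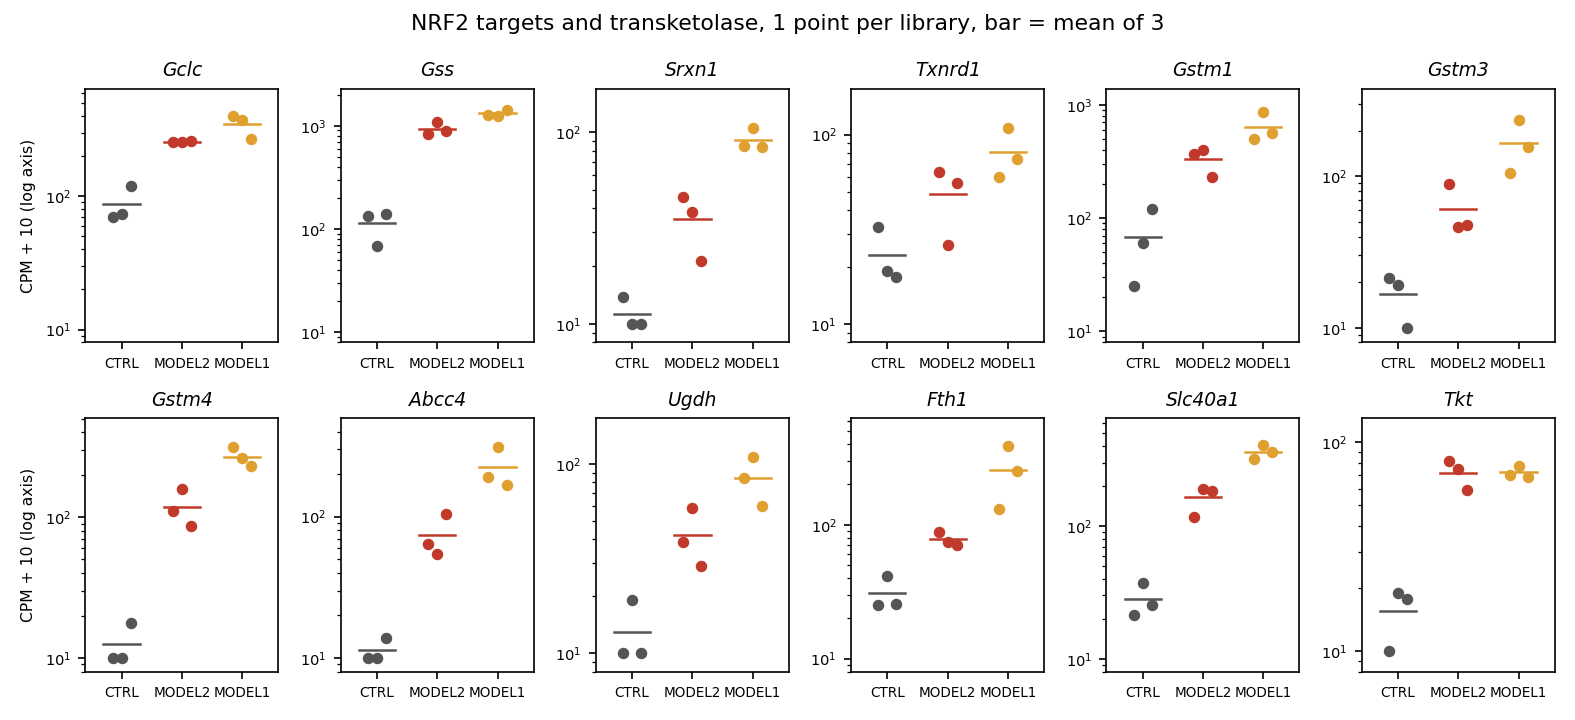
CPM plus 10 on log axes for 11 NRF2 targets and Tkt in CTRL, MODEL2 and MODEL1, 1 point per library, bars at the mean of 3. MODEL2 lies above CTRL in each panel except Txnrd1, whose groups overlap, and its mean lies below that of MODEL1 in each panel, for Tkt by 61.7 against 62.0 CPM.

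Of NRF2's own locus and its partners none was called. Nfe2l2 (chromosome 2, 75675513 to 75704641) had 7, 4 and 4 counts in CTRL and 2, 3 and 2 in MODEL2, a ratio of 0.438 (0.151 to 1.14), and was too low to test. Ctnnb1 (chromosome 9; opposite exon of Ulk4) had 2, 0 and 6 against 10, 2 and 4, a ratio of 1.88 (0.758 to 5.06). Keap1 had 2 counts against 9 in all (4.22, 0.874 to 40.1; opposite exon of Gm16754), and Cul3 had 3 against 10 (3.13, 0.805 to 17.7). Each of these 4 intervals includes 1, although the libraries of the groups did not overlap for Nfe2l2, lower in MODEL2, or for Keap1, higher in MODEL2. Reads of the injected genes, which the labels give by their human symbols, cannot be told from those of the mouse genes here, so these counts do not check the labels. The small Maf partners Mafk (-0.48 ± 0.44, opposite exon of Tmem184a) and Maff (-1.01 ± 0.65) and the adaptor Sqstm1 (0.55 ± 0.68, opposite exon of Mrnip) did not pass. Of these 3 genes 0 passed an unadjusted edgeR p under 0.05, beside 26.2% of all tested genes. DESeq2 and limma-voom called 0 of them, and edgeR called 13.3% of all tested genes. With only 3 genes, this does not show that the partners were unchanged.

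NADPH, which glutathione and thioredoxin reductases consume, comes in part from the pentose phosphate pathway. Its tested member transketolase, Tkt (chromosome 14, 30548359 to 30574720), had 0, 2 and 2 counts in CTRL and 20, 16 and 13 in MODEL2 and rose by 3.40 ± 0.69 log2 units (edgeR adjusted p = 0.00151). The first enzyme, G6pdx (0.24 ± 0.25; opposite exon of Ikbkg), and the epimerase Rpe (-0.46 ± 0.32; opposite exon of Kansl1l) did not pass. Taldo1 held 0 counts in all 6 libraries and Pgd 2 counts in 1 MODEL2 library.

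Targets of beta-catenin gave a narrower pattern. Notum, a secreted enzyme that inactivates Wnt proteins and is induced by the pathway (chromosome 11, 120653788 to 120661175), had 1, 0 and 0 counts in CTRL and 27, 39 and 17 in MODEL2. This was a ratio of 77.9 (13.6 to 3112; edgeR adjusted p = 3.3e-05), with exons of Notumos and Myadml2os opposite. Notum was the called 1 of 3 tested members of 18 listed, beside 8.30% of all tested genes higher. With 1 count in all of CTRL, Notum could pass the filter only through the models. The transcription factor Tcf7 (-0.97 ± 0.70) and cyclin D1, Ccnd1 (-0.13 ± 0.33), did not pass. Axin2, the usual Wnt feedback marker (opposite exon of Gm11670), had 2, 0 and 0 counts against 1, 0 and 0, Lgr5 had 2 counts in 1 CTRL library and 0 in MODEL2, and Tbx3 had 2 against 11 counts, a ratio of 5.16 (1.13 to 47.9; opposite exon of Tbx3os1). Of the destruction complex, which degrades beta-catenin, Gsk3a (0.03 ± 0.26, opposite exon of 9130221H12Rik), Gsk3b (-0.64 ± 0.51) and Apc2 (-0.42 ± 0.48, opposite exon of 2310011J03Rik) were tested. edgeR called 0 of these 3, beside 13.3% of all tested genes, and DESeq2 and limma-voom called 0. At an unadjusted p under 0.05 edgeR gave 0, beside 26.2%. With only 3 genes, this does not show that the complex was unchanged.

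Of 25 pericentral genes 12 were tested, 2 rose, beside 8.30% of all tested genes, and 0 fell, with a median log2 fold change of 1.27. Glul, glutamine synthetase, the marker of the innermost pericentral cells (opposite exon of Teddm2), had 2, 0 and 12 counts in CTRL and 32, 22 and 16 in MODEL2 (2.21 ± 0.60, edgeR adjusted p = 0.0162). CTRL replicate 3 lay near the lowest MODEL2 library. Cyp1a2, which oxidises caffeine and also aromatic amines, had 6, 2 and 12 against 31, 19 and 16 (1.62 ± 0.49, edgeR adjusted p = 0.0301). Slc1a2 (2.35 ± 0.90, adjusted p = 0.0913; opposite exon of Gm13872), the gulonolactone oxidase Gulo (2.46 ± 0.83, adjusted p = 0.0549) and regucalcin, Rgn (1.90 ± 0.66, adjusted p = 0.0596), were higher in sum but did not pass, nor did the vasopressin receptor Avpr1a (1.37 ± 0.57, adjusted p = 0.124), Akr1c6 (1.17 ± 0.71) or Nr1i3 (0.42 ± 0.41; opposite exon of Tomm40l). The other 4 lay under 0: Cyp2e1, the ethanol-oxidising P450, had 47, 41 and 62 counts against 51, 28 and 34 (-0.51 ± 0.34, adjusted p = 0.370), Cyp7a1, the rate-limiting enzyme of bile acid synthesis, -0.13 ± 0.61, Cyp8b1 -1.11 ± 0.66 and the cation transporter Slc22a3 -0.09 ± 0.45 (opposite exon of Plg). Of the 12 genes, edgeR gave 6 higher and 0 lower at an unadjusted p under 0.05, beside 14.5% and 11.7% of all tested genes; DESeq2 called 2 and limma-voom 0. Glul and Cyp1a2 each lost their call without CTRL replicate 1 (adjusted p 0.0782 and 0.104) or MODEL2 replicate 1 (0.0625 and 0.136). Cyp1a2 was also not called without CTRL replicate 2 (0.105) or MODEL2 replicate 2 (0.0619).

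Among 22 periportal genes 7 were tested, 2 fell, beside 4.96% of all tested genes, and 0 rose (median log2 fold change -0.90). Pck1, the enzyme that commits carbon to gluconeogenesis, had 47, 20 and 48 counts in CTRL and 4, 16 and 3 in MODEL2, and fell by 2.35 ± 0.57 log2 units (edgeR adjusted p = 0.00752). Without MODEL2 replicate 3 its log2 fold change was -1.96 ± 0.62, at the threshold (adjusted p = 0.05). Igf1, the growth factor that liver secretes in response to growth hormone (chromosome 10, 87858265 to 87937042), had 43, 23 and 55 against 7, 3 and 6 and fell by 2.97 ± 0.46 (edgeR adjusted p = 9.6e-05); Igf1os lies opposite in its intron. The urea cycle gate Cps1 had 34, 18 and 39 counts against 19, 18 and 14 (-0.90 ± 0.49, adjusted p = 0.254). Arginase Arg1 (-0.40 ± 0.52), the IgA transporter Pigr (-0.92 ± 0.49) and glutaminase Gls2 (0.22 ± 0.38; opposite exon of Spryd4) did not pass.

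**Figure D3:**
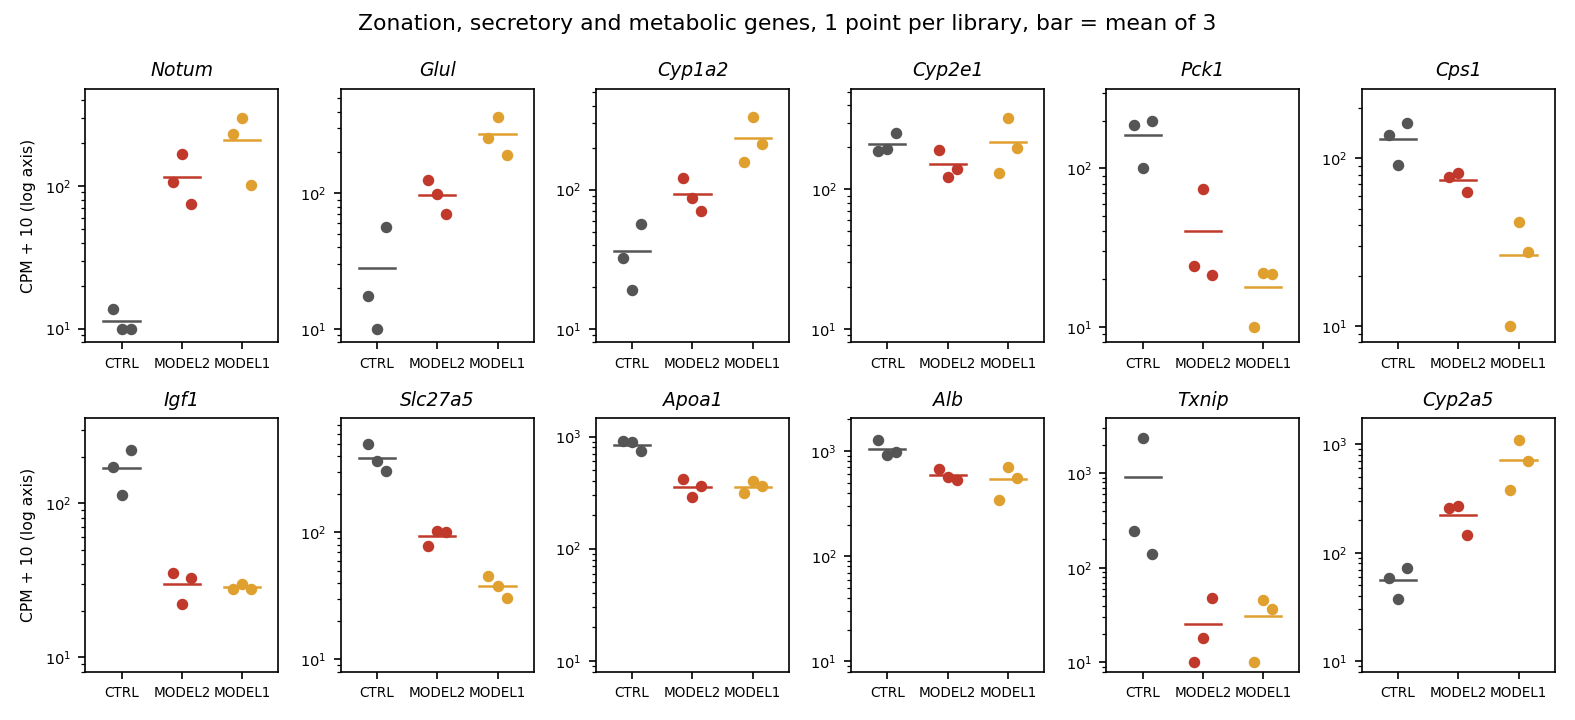
CPM plus 10 on log axes for 12 genes of zonation, secretion and metabolism in CTRL, MODEL2 and MODEL1, 1 point per library, bars at the mean of 3. Notum, Glul, Cyp1a2 and Cyp2a5 lie higher in MODEL2 than in CTRL, Pck1, Igf1, Slc27a5, Apoa1, Alb and Txnip lie lower, and Cyp2e1 and Cps1 were not called.

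Some secreted hepatocyte products fell and most did not pass. Of 19 tested carriers and apolipoproteins 3 fell, beside 4.96% of all tested genes, and 0 rose, with a median log2 fold change of -0.20. Apoa1, the main protein of HDL, had 239, 195 and 188 counts in CTRL and 113, 69 and 93 in MODEL2 (-1.28 ± 0.22, edgeR adjusted p = 0.000274), with wide separation. Alb had 337, 199 and 247 against 187, 137 and 136 (-0.85 ± 0.24, edgeR adjusted p = 0.0199), and Ahsg had 66, 45 and 45 against 41, 20 and 22 (-1.01 ± 0.32, edgeR adjusted p = 0.0410), where its neighbour Gm30505 fell as well, by 0.73 ± 0.17 (edgeR adjusted p = 0.00559). Without CTRL replicate 1 Alb was at -0.68 ± 0.26 (adjusted p = 0.122) and Ahsg at -0.86 ± 0.37 (adjusted p = 0.175). Neither was called without MODEL2 replicate 2 (adjusted p 0.0854 and 0.163) or MODEL2 replicate 3 (0.0995 and 0.165), nor Ahsg without CTRL replicate 2 (0.0574). Both calls also ended with library size in place of TMM (0.0722 and 0.0785), and that of Ahsg with no filter (0.204), the 10 CPM filter (0.103) or only the 2 groups fitted (0.0502). Apolipoprotein E, Apoe, with 826, 742 and 942 counts against 1059, 805 and 743, did not differ by the test (-0.04 ± 0.21), nor did Apob (0.03 ± 0.22), transferrin, Trf (-0.20 ± 0.28), or transthyretin, Ttr (-0.15 ± 0.38).

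Of 7 tested genes of bile acid metabolism, Slc27a5, which couples bile acids to coenzyme A before conjugation, had 129, 78 and 75 counts in CTRL and 19, 23 and 24 in MODEL2. It fell by 2.17 ± 0.31 log2 units (edgeR adjusted p = 3.7e-05), and its groups were far apart. Slc27a5 was the called 1 of the 7, beside 4.96% of all tested genes lower. The uptake carrier Slc10a1 (-0.32 ± 0.26) and the sterol pump Abcg8 (-0.09 ± 0.23; opposite exon of Abcg5) did not pass. Of 6 acute phase genes, Itih4 had 23, 16 and 30 counts against 10, 8 and 10 (-1.37 ± 0.45, edgeR adjusted p = 0.0484), a call that DESeq2 (adjusted p = 0.0545), limma-voom (0.0571) and each removal of 1 library except that of CTRL replicate 2 ended. Itih4 was the called 1 of the 6, beside 4.96% of all tested genes lower. Saa4 (-0.86 ± 0.30, adjusted p = 0.0666), Itih2 (-1.23 ± 0.46, adjusted p = 0.0856) and the iron hormone Hamp (-1.37 ± 0.63, adjusted p = 0.172) lay in the same direction without passing, and haptoglobin, Hp, was at -0.07 ± 0.56.

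Among the P450 genes of the lists, 3 of the Cyp2 family rose in MODEL2 besides Cyp1a2. Cyp2a5, which oxidises coumarin and nicotine, had 13, 6 and 16 counts against 69, 64 and 36 (2.18 ± 0.41, edgeR adjusted p = 0.000838). It was the called 1 of 6 tested P450 genes and partners, beside 8.30% of all tested genes higher. Cyp2a4, a close relative with higher expression in female than in male liver (opposite exon of Gm42375), had 1, 0 and 0 counts against 19, 16 and 5, a ratio of 37.5 (6.36 to 1519; edgeR adjusted p = 0.00064). Cyp2b9, likewise female-biased, had 0 in CTRL against 6, 8 and 1, at least 3.36-fold higher (edgeR adjusted p = 0.0191). These 2, both called, were the tested members of 18 female-biased genes, beside 8.30% of all tested genes higher. With at most 1 count in CTRL, both could pass the filter only through the models, so this share is not a like reference. Cyp2b9 lost its call without CTRL replicate 1, CTRL replicate 3 or MODEL2 replicate 2 (adjusted p 0.0591, 0.0501 and 0.0826), and limma-voom did not call it (0.0894). Cyp2a4 and Cyp2a5 are near-identical and can share reads. Of 15 male-biased genes the tested one, Ugt2b1, was at 0.22 ± 0.45, and the untested male-specific uptake carrier Slco1a1 had 37 against 11 counts, a ratio of 0.279 (0.128 to 0.558).

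Txnip, which restrains glucose uptake and binds thioredoxin, showed the largest fall by fitted fold. It had 63, 525 and 33 counts in CTRL and 0, 2 and 10 in MODEL2 (-5.86 ± 0.97, edgeR adjusted p = 0.000208), with no overlap but with 1 CTRL library holding most of the CTRL counts. limma-voom did not call it (adjusted p = 0.143). Gm15441, which lies opposite, fell with it, from 2121, 3161 and 1019 counts to 713, 551 and 568 (-1.92 ± 0.34, edgeR adjusted p = 0.000377). Among 7 tested hepatocyte transcription factors Cebpb, a regulator of acute phase and gluconeogenic genes, fell, at 46, 26 and 19 counts against 15, 6 and 10 (-1.64 ± 0.45, edgeR adjusted p = 0.0173; opposite exon of Tmem189). Its call ended without CTRL replicate 1 (adjusted p = 0.141), MODEL2 replicate 2 (0.0866) or MODEL2 replicate 3 (0.0591). Cebpb was the called 1 of the 7, beside 4.96% of all tested genes lower. Cebpa (-0.14 ± 0.27, opposite exon of Gm45091) and the constitutive androstane receptor Nr1i3 (0.42 ± 0.41) did not pass. Tomm40l, the symbol opposite Nr1i3, was lower (-1.36 ± 0.21, edgeR adjusted p = 9.6e-05).

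Per2, a repressor in the circadian clock, had 4, 5 and 23 counts in CTRL and 37, 30 and 60 in MODEL2 (1.89 ± 0.48, edgeR adjusted p = 0.00996). It was the called 1 of 4 tested clock genes, beside 8.30% of all tested genes higher. The 17-week CTRL mouse lay closest to MODEL2. The labels give no time of day for tissue collection, so its part in Per2 was not tested. The call ended without CTRL replicate 1 (adjusted p = 0.0595) or MODEL2 replicate 3 (0.0731).

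Cell cycle genes were few and mixed. Of 32 listed, 5 were tested, 2 rose and 1 fell, beside 8.30% and 4.96% of all tested genes. Cyclin A2, Ccna2, which drives DNA replication and entry into mitosis (opposite exon of Exosc9), had 50, 34 and 48 counts in CTRL and 85, 124 and 91 in MODEL2 (1.11 ± 0.27, edgeR adjusted p = 0.00752). The mitotic kinase Aurka had 16, 22 and 28 against 50, 49 and 48 (1.05 ± 0.32, edgeR adjusted p = 0.0312). Thymidine kinase, Tk1 (opposite exon of Afmid), had 201, 217 and 211 against 128, 124 and 122 and fell by 0.85 ± 0.21 (edgeR adjusted p = 0.00813). Each of the 3 separated the groups completely, as did 328 of the 350 called genes. Ccne2 (0.09 ± 0.24, opposite exon of Ints8) and Mcm7 (-0.11 ± 0.53, opposite exons of Ap4m1 and Cops6) did not pass. Aurka's call ended without CTRL replicate 1 (adjusted p = 0.176) or any 1 MODEL2 library (0.0693 to 0.103), Ccna2's without MODEL2 replicate 2 (0.0812) and Tk1's without MODEL2 replicate 1 (0.0541).

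Some called symbols opposite proliferation genes had larger fold changes than those genes. Exosc9, opposite Ccna2, had 2, 2 and 3 counts in CTRL and 52, 42 and 42 in MODEL2, a rise of 4.12 ± 0.45 log2 units (edgeR adjusted p = 9.4e-07). Afmid, opposite Tk1, fell by 2.35 ± 0.46, from 64, 35 and 66 counts to 19, 13 and 2 (edgeR adjusted p = 0.00114). The following pairs were chosen among called symbols after their values were seen. Proliferation genes whose opposite symbol was not called were not counted, so the pairs show no trend. Lcorl rose by 3.80 ± 0.50 while the condensin subunit Ncapg opposite it was at 0.13 ± 0.22, and Polg rose by 2.29 ± 0.75 while Fanci, of the Fanconi DNA repair pathway, was at -0.10 ± 0.22. Zfp276 rose by 1.61 ± 0.39 with Fanca at -0.39 ± 0.26, and Paqr4 rose by 3.56 ± 0.75 with the mitotic kinase Pkmyt1 at -0.09 ± 0.65. Lctl rose by 2.11 ± 0.61 where the kinetochore gene Zwilch held 0 counts in both groups. In 87 neighbouring pairs both symbols were tested and at least 1 was called. Both were called in 9, in the same direction each time, and 1 of them in 78. Tested pairs with neither symbol called were not counted, so these numbers show no trend either.

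Metabolic list members also had called neighbours. Hcn3, opposite the glycolytic enzyme Pklr, had 108, 106 and 71 counts in CTRL and 260, 198 and 186 in MODEL2 (1.07 ± 0.30, edgeR adjusted p = 0.0176), while Pklr itself had 4 counts in all. 9530052E02Rik, opposite the insulin receptor substrate Irs2, fell by 2.32 ± 0.31 (edgeR adjusted p = 1.2e-05), and Dlec1, opposite the peroxisomal thiolase Acaa1b, by 2.71 ± 0.63 (edgeR adjusted p = 0.0053). In all, 14 called symbols lie opposite a member of one of the lists. The share of all tested symbols that do so was not counted.

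In 11 lists, some of them described above, no tested member was called. These held 54 genes, among them coagulation and complement (15), urea cycle and amino acid catabolism (8), fatty acid synthesis (8), fatty acid oxidation (5), cholesterol synthesis (4), ATF4 targets (3), interferon response (2) and oncofetal genes (2). edgeR called 0 of the 54, beside 13.3% of all tested genes, and gave 5 at an unadjusted p under 0.05, beside 26.2%; DESeq2 called 0 and limma-voom 1. Alpha-fetoprotein, Afp, a marker of fetal liver and of many liver tumours, had 30, 19 and 39 counts in CTRL and 46, 38 and 37 in MODEL2 (0.38 ± 0.32, adjusted p = 0.506).

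**Figure D4:**
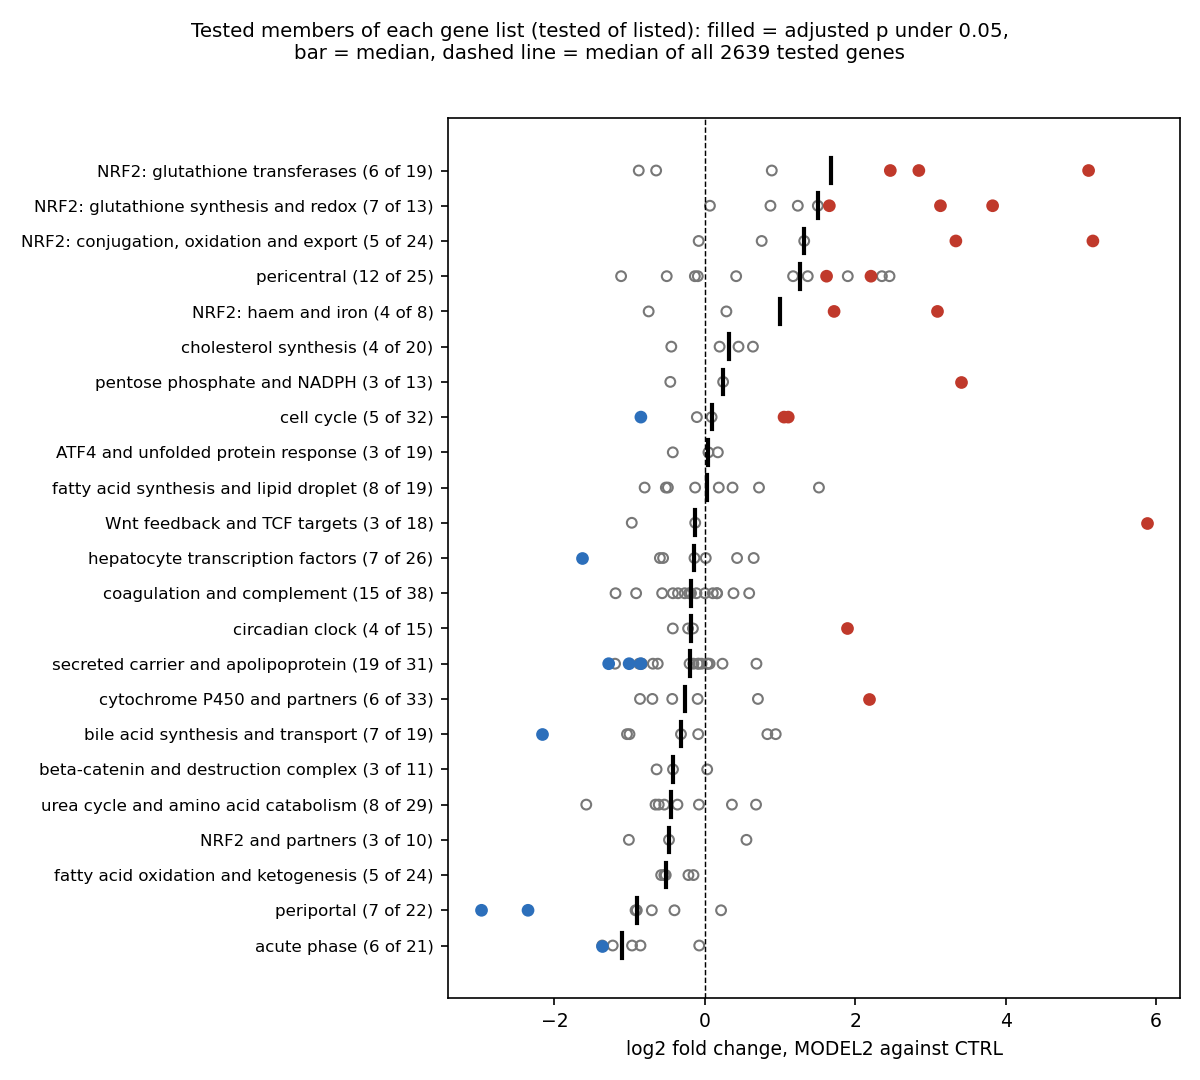
Log2 fold change of MODEL2 against CTRL (horizontal axis) for each tested member of the gene lists with at least 3 tested members, with tested of listed members in brackets. Filled points passed an adjusted p of 0.05, black bars are medians, and the NRF2 lists and the pericentral list lie furthest to the right of the dashed median of all tested genes.

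Outside the lists, the largest rises were in symbols with few or no counts in CTRL. Alpk3, a muscle alpha-kinase, had 0 counts in CTRL and 35, 55 and 38 in MODEL2, at least 32.1-fold higher (edgeR adjusted p = 9.6e-07). Kcna4, a voltage-gated potassium channel, had 0 against 41, 49 and 36, at least 31.6-fold higher. Nfkbib, an inhibitor of NF-kappaB (opposite exons of Ccer2 and Sirt2), had 0 against 40, 40 and 28, at least 27.0-fold. Thy1, a surface protein of T cells, neurons and fibroblasts, had 0 against 15, 37 and 15, at least 16.6-fold. The part of cell content in the Thy1 counts was not tested. Ttc27 was at least 15.8-fold, the urate transporter Slc22a12 at least 13.8-fold and Klhl31 at least 8.95-fold higher, each from 0 counts. Nrxn2, a neuronal adhesion protein opposite Slc22a12, rose as well, from 6, 4 and 12 counts to 216, 198 and 287 (4.89 ± 0.31, edgeR adjusted p = 8.2e-10). Mrgpra3, an itch receptor of sensory neurons, had 1, 0 and 0 counts against 127, 103 and 128, a ratio of 336 (59.9 to 13301; edgeR adjusted p = 1.2e-09). Lrrc75b had 1, 0 and 1 against 94, 101 and 118, a ratio of 147 (40.3 to 1218), Fermt1, an integrin activator of epithelia, 1, 2 and 0 against 48, 122 and 85, a ratio of 79.7 (27.0 to 389), and Tbc1d21 1 against 89 counts in all, a ratio of 83.5 (14.6 to 3334).

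Rtl1, an imprinted gene derived from a retrotransposon (chromosome 12, 109589193 to 109600330, minus strand), had 1, 0 and 5 counts in CTRL and 190, 276 and 280 in MODEL2. Mean levels were 7.76 ± 10.4 and 950 ± 236 CPM (SD, n = 3), a log2 difference of 6.80 ± 0.49 (edgeR adjusted p = 1.8e-09). Rtl1 was among the calls kept with age as a covariate (5.29 ± 0.90, adjusted p = 0.00343). The opposite strand of its exon carries 6 miRNA hairpins, whose symbols held 0 counts in CTRL and MODEL2. As a symbol's count may describe the other strand, these values do not show which strand rose or that either was silent. Mature sequences of 3 of these are printed (RefSeq, GRCm38.p6; bases 2 to 8, the seed, in capitals) because they are the annotated products of the other strand, and the 3 seeds differ.

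mmu-miR-127-3p, chr12:109592888-109592909, plus strand: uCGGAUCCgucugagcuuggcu

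mmu-miR-433-3p, chr12:109591781-109591802, plus strand: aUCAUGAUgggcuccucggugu

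mmu-miR-136-5p, chr12:109595331-109595352, plus strand: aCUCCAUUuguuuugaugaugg

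After Txnip, the largest falls among named symbols were as follows. Olfr541 had 78, 27 and 60 counts in CTRL and 1, 1 and 1 in MODEL2, a ratio of 0.0171 (0.00348 to 0.0507; edgeR adjusted p = 9.4e-07). Syngr2, a vesicle protein, had 84, 29 and 94 against 9, 10 and 5 (-3.15 ± 0.45, edgeR adjusted p = 3.5e-05). Gab1, an adaptor of growth factor receptors (opposite exon of Gm31105), had 58, 18 and 38 against 7, 6 and 2 (-2.96 ± 0.52), and Sra1, a nuclear receptor coactivator, had 123, 62 and 63 against 20, 6 and 9 (-2.90 ± 0.43). Ctcfl (-3.01 ± 0.47; opposite exon of Ctcflos), the decoy chemokine receptor Ackr2 (-2.93 ± 0.54) and the interleukin-2 receptor chain Il2ra (-2.92 ± 0.53) fell by like amounts, as did Btf3l4 (-3.71 ± 0.76), Rhobtb1 (-3.40 ± 0.78; opposite exon of A930033H14Rik) and Crip3 (-3.19 ± 0.82). Ackr2 had 225, 123 and 39 counts in CTRL, so that its control libraries differed among themselves by more than its lowest control differed from its highest MODEL2 library, at 30. Crip3 lost its call without CTRL replicate 1, CTRL replicate 2, MODEL2 replicate 1 or MODEL2 replicate 3 (adjusted p 0.0577 to 0.0831).

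Among the most abundant called symbols changes were smaller, and most had an opposite-strand exon. Trp53bp1, a DNA damage adaptor (opposite exon of Tubgcp4), had 255, 400 and 344 counts in CTRL and 1504, 1488 and 1385 in MODEL2 (2.02 ± 0.22, edgeR adjusted p = 8.8e-07). Hectd2 (opposite exon of Hectd2os) had 419, 322 and 416 against 1757, 1136 and 1474 (1.82 ± 0.18, edgeR adjusted p = 1.9e-07). Both kept their call in each alternative in which they could be fitted. The chaperonin subunit Tcp1 (0.86 ± 0.18; Acat3 and Mrpl18), Sla2 (1.06 ± 0.25; Rab5if), Map3k15 (1.02 ± 0.19; Pdha1), Tsr1 (0.66 ± 0.19; Srr), Tmem198b (0.78 ± 0.19; Mmp19 and Dnajc14) and Rnf146 (0.59 ± 0.18; Echdc1 and Gm30698) rose too, each with the opposite-strand exon neighbours named in brackets. Without CTRL replicate 1 Tsr1 (adjusted p = 0.136), Tmem198b (0.0584) and Rnf146 (0.133) were not called. Tsr1 was also lost without MODEL2 replicate 1 (0.0610) or 2 (0.111), and Rnf146 without any other library except CTRL replicate 2 (0.0585 to 0.104). Among abundant falls, Tomm40l, opposite Nr1i3, had 3834, 2323 and 1923 counts against 1186, 1102 and 1043 (-1.36 ± 0.21, edgeR adjusted p = 9.6e-05). Sphk2 (-1.40 ± 0.24; Dbp and Rpl18), Adh7 (-1.10 ± 0.18; 0610031O16Rik), E2f8 (-1.53 ± 0.30; Gm2788), Vcl (-1.11 ± 0.25; Ap3m1), and, with no opposite exon, Spag9 (-1.46 ± 0.24) and Zbtb45 (-1.55 ± 0.21) also fell.

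MODEL2 was then set against MODEL1 directly, to find where the T80K livers differed from the G31A livers that share T41A. Of 2639 genes 192 differed (7.28%), 102 higher (3.87%) and 90 lower (3.41%) in MODEL2. Of the 219 genes that had risen against CTRL, 35 were lower in MODEL2 than in MODEL1, 11 were higher and 173 were not called; of the 131 that had fallen, 15 were higher than in MODEL1, 6 lower and 110 not called. Both comparisons use the same MODEL2 libraries, so these counts are not independent. The 192 calls were 85, 118 and 98 without MODEL2 replicates 1, 2 and 3, and 88 and 111 without MODEL1 replicates 2 and 3.

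NRF2 targets lay lower in MODEL2 than in MODEL1. Of the 22 tested, 7 were lower, beside 3.41% of all tested genes, and 0 higher. These were Fth1 (-1.85 ± 0.39, edgeR adjusted p = 0.00564), Abcc4 (-1.71 ± 0.40, edgeR adjusted p = 0.0104), Gstm3 (-1.59 ± 0.46), Gstm4 (-1.26 ± 0.35), Slc40a1 (-1.18 ± 0.29) and 2 that had not passed against CTRL, Slc7a11 and Ftl1. With only MODEL2 and CTRL fitted, 11 NRF2 targets passed the filter, so others could enter through MODEL1, where they were high. The share of all tested genes is therefore not a like reference for the 7. Abcc4, for example, had 51, 76 and 54 counts in MODEL1, each above the 15, 11 and 25 of MODEL2. Gss (-0.50 ± 0.22), Gclc (-0.45 ± 0.27) and Tkt (0.00 ± 0.49) were not called between the models. Glul (-1.56 ± 0.45, edgeR adjusted p = 0.0389), Cyp1a2 (-1.42 ± 0.39) and Cyp2a5 (-1.74 ± 0.34) were lower in MODEL2 than in MODEL1 too, whereas Cps1 (1.97 ± 0.60) and Slc27a5 (1.59 ± 0.39) were higher, with Cps1 at 0, 8 and 6 counts in MODEL1. Tk1 was higher (1.24 ± 0.22, edgeR adjusted p = 0.00136). For the genes called here MODEL2 lay between CTRL and MODEL1 by mean CPM.

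Other genes stood apart from both groups in MODEL2. Hectd2 was higher than in MODEL1 as well (1.52 ± 0.18, edgeR adjusted p = 9.7e-06), at 563, 486 and 617 counts there. Pitx3, opposite the fatty acid elongase Elovl3, had 7, 2 and 8 counts in CTRL, 28, 50 and 30 in MODEL2 and 0, 2 and 1 in MODEL1 (2.58 ± 0.54 against CTRL and 5.15 ± 0.69 against MODEL1). Apba3 (2.23 ± 0.47 and 1.68 ± 0.43; opposite exon of Tjp3) and the interleukin-17 receptor chain Il17rc (1.74 ± 0.47 and 2.08 ± 0.47) were higher than in both. Bcl6, a transcriptional repressor (opposite exon of Gm37419), had 52, 34 and 30 counts in CTRL, 17, 16 and 12 in MODEL2 and 61, 62 and 106 in MODEL1 (-1.45 ± 0.34 and -2.17 ± 0.33). Notch3, a receptor of vascular smooth muscle (-2.18 ± 0.58 and -2.02 ± 0.58; opposite exon of Gm17276), Tmem161a (-2.80 ± 0.36 and -1.38 ± 0.37) and the lipid transporter Abca3 (-2.08 ± 0.32 and -1.21 ± 0.32; opposite exon of D330041H03Rik) were lower than in both. Il17rc lost its call against CTRL without CTRL replicate 3 (adjusted p = 0.0674) or MODEL2 replicate 1 (0.128), and Notch3 without the same libraries (0.0914 and 0.0715) or by limma-voom (0.0999).

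Age moved with the groups, so the comparison was fitted again with age in weeks as a covariate. Then 72 genes were called, 63 of them among the 350, and none with the opposite direction. Of the 74 named genes that were tested, 24 kept their call and 50 did not, and standard errors grew, that of Gss from 0.26 to 0.53. Of the 10 risen NRF2 targets 3 kept their call: Gss (2.74 ± 0.53, adjusted p = 0.0087), Gstm4 (adjusted p = 0.0437) and Gstm3 (5.60 ± 1.51, adjusted p = 0.05). The others lost it: Gclc (0.91 ± 0.61, adjusted p = 0.585), Gstm1 (0.432), Fth1 (0.389), Abcc4 (0.368), Ugdh (0.253), Slc40a1 (0.153) and Srxn1 (0.0794). The median over the 22 tested targets was 1.97. Notum, Igf1, Cyp2a4, Rtl1, Mrgpra3, Kcna4, Olfr541 and Hectd2 also kept theirs. Glul (1.01 ± 1.14), Pck1 (-2.69 ± 1.09), Tkt (3.62 ± 1.45), Slc27a5 (-1.71 ± 0.65), Apoa1 (-0.91 ± 0.44), Alb (-0.47 ± 0.49), Txnip (-1.59 ± 1.84), Ccna2 (0.97 ± 0.59) and Tomm40l (-0.48 ± 0.39) lost theirs, and Per2 changed sign.

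**Figure D5:**
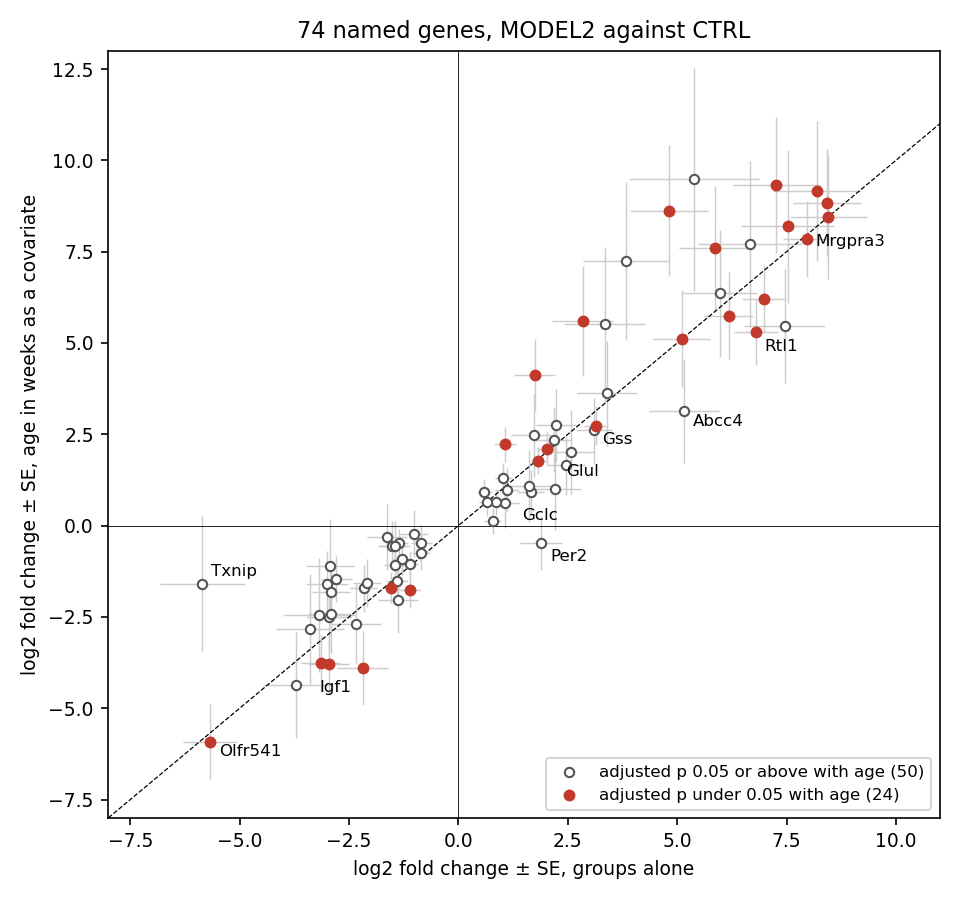
Log2 fold change ± SE of MODEL2 against CTRL for the 74 tested named genes, fitted with groups alone (horizontal axis) and with age in weeks as a covariate (vertical axis); the dashed line marks equal values. Filled points, 24 genes, passed an adjusted p of 0.05 with age; Txnip and Per2 lie far from the line on the side of smaller or reversed changes, and Cyp2b9, Cyp2a4 and Srxn1 on the side of larger ones.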

How the data were processed

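Liver RNA of 9 mice was extracted with Trizol and made into libraries by Illumina protocols, per the labels, which name no kit or strand setting. The authors deposited raw counts, whole-number reads per gene symbol with no normalization; the build mm10 and the tools HTSeq 0.11.2, Trimmomatic 0.38 and HISAT2 2.1.0 are named, per the submitters' processing notes. Annotation and strand handling are not given in the sources used here. Totals ran from 219504 to 325177 counts, and intervals and floors cover counting error only. Groups came from the labels.

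Low genes were removed by filterByExpr (minimum count 10), and the rest scaled by TMM and fitted in edgeR 4.0.16 (R 4.3.3) by quasi-likelihood to all 9 libraries, with Benjamini-Hochberg adjustment over 2639 genes, two-sided tests and a threshold of 0.05. SE is the size of the log2 fold change over the square root of F. CPM uses TMM-scaled library sizes, except for the floor of 3 counts, which uses raw totals. The fit was tested on simulated data. Folds against 0 counts are exact 95% lower limits, except that of Cbr1, which is a ratio against 3 counts over the group. Ratios on low counts carry exact 95% intervals. DESeq2 1.42.0 and limma 3.58.1 (voom) were alternatives, with other scalings, filters, covariates and left-out libraries. Symbols were placed with GENCODE M21, 24002 of 24419. p-values measure the spread between these mice alone.

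Named genes were Nfe2l2, Ctnnb1, Keap1 and Cul3, up to 6 called members per list, the 12 largest rises and falls and the 8 most abundant called genes in each direction (libraries not overlapping, no provisional symbols), and 4 rises and 4 falls called against both groups; any other named gene was picked with its values in view. The comparison, the 40 lists and this rule were chosen with earlier results of these data known.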

Additional observations from a re-analysis of the deposited data

How the results depend on the processing

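For MODEL2 against CTRL the count of 350 called genes stayed between 291 and 349 with RLE scaling, library size alone, DESeq2, limma-voom, no filter, a 10 CPM filter, only these 2 groups or the replicate block. It was 72 with age as a covariate, 210 without the 3 libraries rich in Rn45s (over 8% of counts), 127 among the 1007 genes with no opposite-strand exon, 170 against a fold of 1.5, and 223 to 374 with 1 library left out. NRF2 targets higher numbered 3 with age and 7 to 11 otherwise. MODEL2 against MODEL1 gave 101 with age, 125 with the replicate block, 62 without the libraries rich in Rn45s, 63 with no opposite-strand exon, 61 against a fold of 1.5, and 85 to 138 with 1 library left out (85 without MODEL2 replicate 1, 88 without MODEL1 replicate 2), against 192. Same-numbered libraries did not deviate together (r = -0.037, -0.053 and 0.004), so the block of 291 and 125 calls is no pairing. Per2 reversed with age (-0.47 ± 0.74, adjusted p = 0.860). Of 74 named genes 21 lost the call when 1 library was left out and 55 in at least 1 setting. Causes were not tested, beyond fewer genes or libraries. Depth limits genes under 10.1 to 12.4 CPM by raw library totals.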
